A study of Mus musculus with 39 samples.

Results

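Claudins are the membrane proteins that form the strands of tight junctions, the seals that run around epithelial and endothelial cells near their apical edge. Some members, such as claudin-1, -3, -4, -5, -7 and -8, are known mainly for tightening the space between cells, while claudin-2 and claudin-15 form pores that let small cations pass, and claudin-2 also lets water pass. In the small intestine the pores return sodium to the lumen, where sodium-coupled uptake of nutrients needs it; in the colon the wall is tighter and holds back the salt that has been absorbed. Transcripts of 10 claudin genes, Cldn1, Cldn2, Cldn3, Cldn4, Cldn5, Cldn7, Cldn8, Cldn12, Cldn15 and Cldn23, were followed here along the gut. The 10 genes were given as a list of symbols, and they stand among 35 claudin entries in tables of 34600 entries.

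The tables hold RNA sequencing of whole-tissue samples from 6 BALB/cJ and 7 C57BL/6J mice, both inbred strains with no engineered allele or treatment in the labels. Each of the 13 mice gave 3 libraries, from colon, ileum and a piece called duodenum/jejunum in the labels, so that the 39 libraries form 6 groups. The labels give no sex, age, diet, batch or position within the segment. Values are TPM (transcripts scaled to the same total in each library), which are corrected for transcript length, so levels can be set side by side between genes. Sequencing depth is unknown, so precision rests on the spread between mice.

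Before the results, 1 mouse has to be named. The library labelled ileum of C57BL/6J mouse 2 held 22.1 TPM of Fabp6, the ileal bile acid binding protein, against 3766 to 8189 TPM in the other 6 C57BL/6J ileum libraries, and 51.2 TPM of Tmprss15, the duodenal enterokinase, which stayed at or under 0.0304 TPM in those 6. The library of the same mouse labelled duodenum/jejunum held 6111 TPM of Fabp6, against 3.12 to 32 TPM in the other C57BL/6J libraries of that segment, and 39.2 TPM of Tmprss15. Both libraries went against the level of Fabp6 that their labels imply. Calls that changed without this mouse are given both ways, as are some of the other values that rest on it. Leaving it out changed 3 claudin calls, those of Cldn3 between C57BL/6J ileum and duodenum/jejunum, of Cldn23 between strains in the duodenum/jejunum and of Cldn2 in the difference of strain differences between colon and ileum.

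Which letters stand before the RefSeq starts was read for the pore formers Cldn2 and Cldn15, because their levels ran in different directions along the gut. Start regions of 8 of the 10 genes were found in RefSeq on GRCm38.p6, 11 windows of 250 bases before a start. The core of the binding site of the CDX factors, which specify intestinal epithelium, was searched as TTTAT on both strands (ATAAA on the other strand). It occurred in 2 of the 11 windows, those of Cldn2 and Cldn15, which are printed below 5′ to 3′ on the strand of the gene, with the matches in capitals. For Cldn2 the window is chrX:139800558-139800807 on the plus strand, and for Cldn15 it is chr5:136967619-136967868 on the plus strand. The Cldn15 window lies inside the gene as spanned in GENCODE M21 (chr5:136966616-136975858). It precedes a RefSeq start, not the first GENCODE start.
Cldn2: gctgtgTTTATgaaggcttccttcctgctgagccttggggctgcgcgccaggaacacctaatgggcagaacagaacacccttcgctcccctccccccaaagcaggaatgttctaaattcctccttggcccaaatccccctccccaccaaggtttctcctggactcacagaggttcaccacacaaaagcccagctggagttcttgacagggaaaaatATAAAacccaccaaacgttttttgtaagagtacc
Cldn15: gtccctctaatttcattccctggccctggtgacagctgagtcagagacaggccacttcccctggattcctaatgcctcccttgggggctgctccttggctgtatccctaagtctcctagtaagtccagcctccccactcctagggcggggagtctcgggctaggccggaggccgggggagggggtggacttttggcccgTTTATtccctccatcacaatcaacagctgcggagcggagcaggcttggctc
In Cldn2 the matches began 244 and 34 bases before the start, and the nearer one overlaps TATAAA, the letters of the TATA box. In Cldn15 the single match began 51 bases before the start, with no TATAAA in the window. Of the windows of all genes, 37.3% held TTTAT or ATAAA and 12.4% held TATAAA or TTTATA, so a match is common and is a description of the letters only.

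The 10 genes held nearly all claudin transcripts. Summed over the 35 entries, claudins averaged between 1257 and 1537 TPM in the 6 groups, and the 10 genes took between 98.7% and 99.3% of that sum. Cldn7, a claudin that also lies along the sides of epithelial cells, was the most abundant in every group, with 44.9% to 54.0% of the sum. Cldn3, a sealing claudin and a receptor for the enterotoxin of Clostridium perfringens, and Cldn15 came after it, and the 3 together took 80.6% and 79.2% in the colon of BALB/cJ and C57BL/6J mice, 85.6% and 87.5% in the ileum and 88.8% and 89.6% in the duodenum/jejunum.

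**Figure D1:**
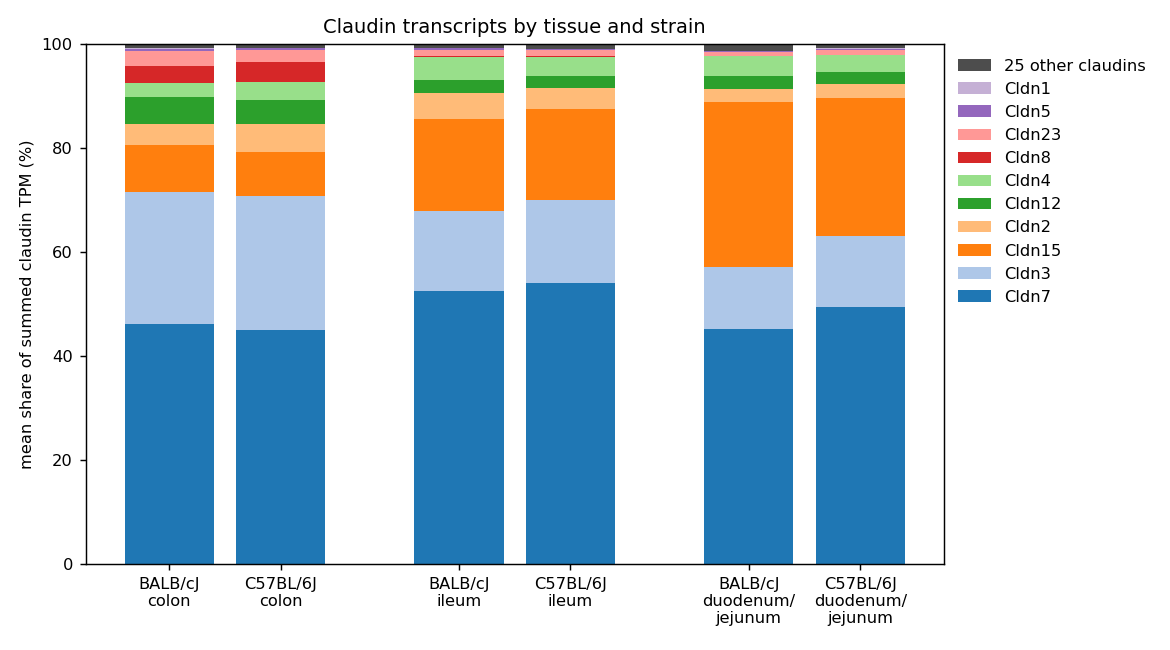
Mean percentage of the summed claudin TPM taken by each gene in the 6 groups of libraries (stacked bars, 6 BALB/cJ and 7 C57BL/6J mice per tissue). Cldn7 takes between 44.9% and 54.0% in every bar, Cldn3 takes its largest shares in the colon (25.5% and 25.8%) and Cldn15 in the duodenum/jejunum (31.6% and 26.4%).

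The mix differed between segments in Cldn3, which took its largest shares in the colon, in the pore formers and in Cldn8, among others. Cldn2 and Cldn15 together took 13.1% ± 1.28 (SD) of the claudin sum in the colon of BALB/cJ mice and 14% ± 1.11 in C57BL/6J mice, 22.6% ± 1.31 and 21.7% ± 2.28 in the ileum, and 34.1% and 29.2% in the duodenum/jejunum. Cldn8, a barrier claudin of the distal colon and of the collecting duct of the kidney, took 3.44% of the sum in BALB/cJ colon and 3.84% in C57BL/6J colon, 0.268% and 0.155% in ileum, and 0.0524% and 0.0527% in duodenum/jejunum. In bulk tissue, fewer cells of a type and less RNA per cell cannot be told apart, here and in every result that follows.

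**Figure D2:**
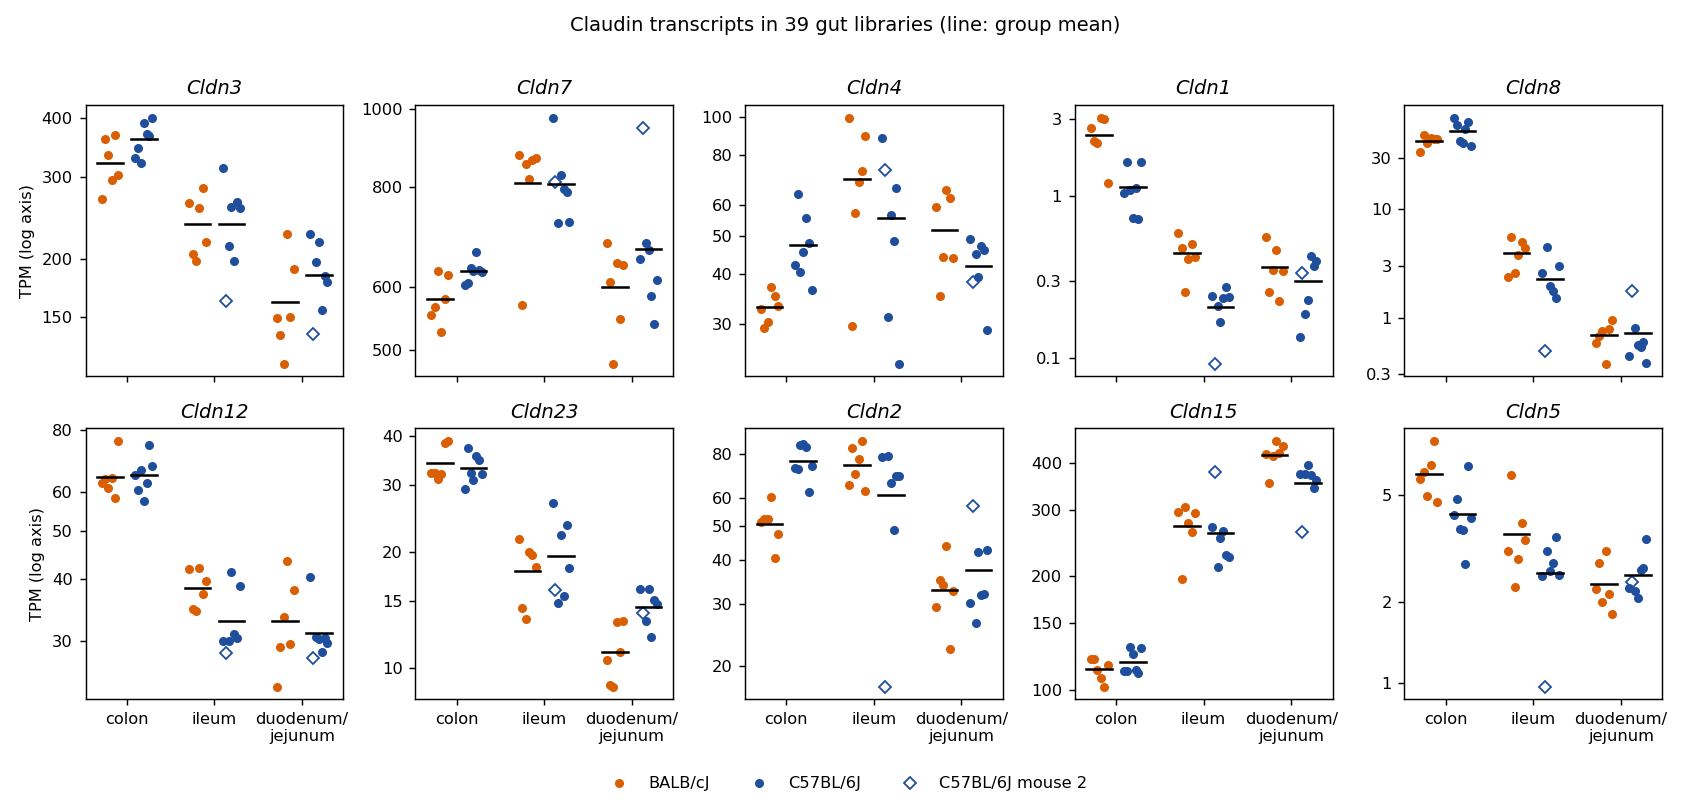
TPM (log axes, a scale of its own in each panel) of the 10 claudins in 39 libraries; points are libraries, lines are group means, and open diamonds are the ileum and duodenum/jejunum libraries of C57BL/6J mouse 2. Cldn8 and Cldn1 are highest in the colon, Cldn15 in the duodenum/jejunum, and the group means of Cldn2 are lowest in the duodenum/jejunum (32.9 and 37.5 TPM).

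Tissues were compared within each strain in a limma fit of log2(TPM + 1) over all 39 libraries, with Benjamini-Hochberg adjustment over the 17126 genes tested; a gene was called at an adjusted p under 0.05. Tissue differences were widespread. For colon against ileum in BALB/cJ mice, 46.1% of all genes tested were called (30.3% higher and 15.8% lower in the colon), and of the 10 claudins 6 were higher and 4 lower. For BALB/cJ ileum against duodenum/jejunum, 43.1% of genes were called (35.5% higher and 7.63% lower in the ileum), and 6 claudins were higher and 1 lower. For BALB/cJ colon against duodenum/jejunum, 63.5% of genes were called (49.0% higher and 14.5% lower in the colon), and 7 claudins were higher and 2 lower. In C57BL/6J mice, colon against ileum called 61.7% of genes (46.5% higher and 15.2% lower), with 6 claudins higher and 2 lower, and colon against duodenum/jejunum called 64.6% (49.4% higher and 15.3% lower), with 7 claudins higher and 1 lower. C57BL/6J ileum against duodenum/jejunum called 11.3% (5.54% higher and 5.79% lower), with 4 claudins higher and 1 lower; without mouse 2 it called 3510 genes in place of 1940, and 6 claudins in place of 5. In each of these comparisons the share of claudins called was above that of all genes, for which no test was made. The 3 comparisons of a strain share their libraries and do not support each other. The median gene also shifted, by 0.11, 0.20 and 0.29 on the log2 scale in BALB/cJ mice and by 0.24, 0.04 and 0.28 in C57BL/6J mice, and scaling by the median gene (relative log expression, RLE) brought these shifts to between -0.01 and 0.01. Differences near these shifts are therefore read against them, and a call that RLE scaling ended is named where its value is given.

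Of the sealing claudins, Cldn8 had the steepest gradient. It stood at 34.2, 44.6 and 48.8 TPM (lowest, median and highest library) in the colon of BALB/cJ mice and at 38.5, 55.1 and 70.9 TPM in the colon of C57BL/6J mice. In the ileum it stood at 2.36, 4.10 and 5.59 TPM in BALB/cJ mice and at 0.495, 1.95 and 4.48 TPM in C57BL/6J mice, and in the duodenum/jejunum at 0.375, 0.712 and 0.950 TPM and at 0.379, 0.553 and 1.77 TPM. No colon library overlapped a small intestinal one, and in BALB/cJ mice the ileum did not overlap the duodenum/jejunum either. The mean in the colon was 63.2-fold higher than in the duodenum/jejunum in BALB/cJ mice and 73.7-fold higher in C57BL/6J mice, or 95-fold without C57BL/6J mouse 2. On the log2(TPM + 1) scale, which understates low genes, these were differences of 4.72 ± 0.21 (SE, adjusted p = 5.9e-21) and 4.98 ± 0.19 (adjusted p = 9.03e-23). Between ileum and duodenum/jejunum the difference was 1.52 ± 0.21 in BALB/cJ mice (adjusted p = 7.99e-07) and 0.85 ± 0.19 in C57BL/6J mice (adjusted p = 0.00239), where the fold was 3.1 with mouse 2 and 4.61 without it.

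Cldn1, the claudin that seals the epidermis, was also a colon gene, at a much lower level. Its mean was 2.38 ± 0.70 TPM in the colon of BALB/cJ mice (SD, n = 6) and 1.14 ± 0.37 TPM in C57BL/6J mice (n = 7), and between 0.208 and 0.444 TPM in the 4 groups of the small intestine. The colon exceeded the duodenum/jejunum by 1.28 ± 0.12 in BALB/cJ mice (SE, limma adjusted p = 4.28e-12) and by 0.71 ± 0.11 in C57BL/6J mice (adjusted p = 4.34e-07). Between ileum and duodenum/jejunum it was not called in either strain (0.08 with a 95% interval of -0.15 to 0.31 in BALB/cJ mice, and -0.10 with -0.32 to 0.12 in C57BL/6J mice).

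Cldn3 decreased in the order colon, ileum, duodenum/jejunum, with group medians of 318, 237 and 149 TPM in BALB/cJ mice and 367, 257 and 183 TPM in C57BL/6J mice. Colon exceeded duodenum/jejunum by 1.01 ± 0.14 and 0.97 ± 0.13 on the log2 scale in the 2 strains (adjusted p = 7.27e-08 and 3.19e-08), with no overlap of the libraries. The step between ileum and duodenum/jejunum was called in BALB/cJ mice (0.57 ± 0.14, adjusted p = 0.00128), but not with RLE scaling (0.34, adjusted p = 0.0542). Colon over ileum was called in BALB/cJ mice (0.44, adjusted p = 0.00868), but not with RLE scaling (0.31, adjusted p = 0.0600) or without BALB/cJ mouse 2 (0.37, adjusted p = 0.050005). The C57BL/6J difference for that pair was also called (0.62 ± 0.13, limma adjusted p = 7.49e-05). In C57BL/6J mice the step between ileum and duodenum/jejunum was 0.35 ± 0.13 with an adjusted p of 0.0728, with an adjusted p of 0.0444 with the mouse as a block, and 0.37 with an adjusted p of 0.0307 without mouse 2.

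Cldn7 averaged highest in the ileum. Its mean was 579 ± 39.3 and 627 ± 19.8 TPM in the colon of BALB/cJ and C57BL/6J mice, 808 ± 119 and 806 ± 85.4 TPM in the ileum, and 600 ± 73.0 and 668 ± 132 TPM in the duodenum/jejunum (SD). Colon minus ileum was -0.47 ± 0.10 in BALB/cJ mice (adjusted p = 0.00029; -0.19 and adjusted p = 0.0980 with a set of epithelial markers as a covariate) and -0.36 ± 0.10 in C57BL/6J mice (adjusted p = 0.00161) on the log2 scale. Ileum exceeded duodenum/jejunum by 0.42 ± 0.10 in BALB/cJ mice (adjusted p = 0.00132) and by 0.28 ± 0.10 in C57BL/6J mice (adjusted p = 0.0485, 0.0604 with the mouse as a block). Without mouse 2 the C57BL/6J difference was 0.37 (adjusted p = 0.00260), and leaving out any 1 of 10 of the other 12 mice ended that call (adjusted p up to 0.191). With RLE scaling the differences were 0.19 (adjusted p = 0.270) and 0.23 (adjusted p = 0.244), neither of them called. Colon and duodenum/jejunum differed by less than the spread between mice, by -0.04 (95% interval -0.25 to 0.17) in BALB/cJ mice and -0.07 (-0.27 to 0.12) in C57BL/6J mice, or 0.02 without mouse 2. With RLE scaling, which is relative to the median gene, Cldn7 was lower in the colon (-0.40 with an adjusted p of 0.00842, and -0.41 with an adjusted p of 0.00405).

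Cldn4, which like Cldn3 seals and binds the Clostridium enterotoxin, varied widely between mice in the ileum. There it stood at 29.7, 70.7 and 99.8 TPM (lowest, median and highest) in BALB/cJ mice and at 23.8, 56.6 and 88.7 TPM in C57BL/6J mice, against 29.3, 33 and 37.3 TPM and 36.6, 45.5 and 63.9 TPM in the colon. In the duodenum/jejunum the medians were 51.8 and 45.1 TPM. BALB/cJ colon was lower than BALB/cJ ileum (-0.96 ± 0.24, adjusted p = 0.000973) and BALB/cJ duodenum/jejunum (-0.60 ± 0.24, adjusted p = 0.0260), with ranges that overlapped. The call against ileum was lost with the epithelial covariate (-0.51, adjusted p = 0.107). The call against duodenum/jejunum was lost without BALB/cJ mouse 1, 4 or 5 (adjusted p up to 0.0698) and with blood endothelium markers as a covariate (-0.41, adjusted p = 0.127). In C57BL/6J mice no pair of segments was called, with differences of -0.12 (95% interval -0.57 to 0.33) for colon against ileum and 0.17 (-0.28 to 0.62) for colon against duodenum/jejunum.

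**Figure D3:**
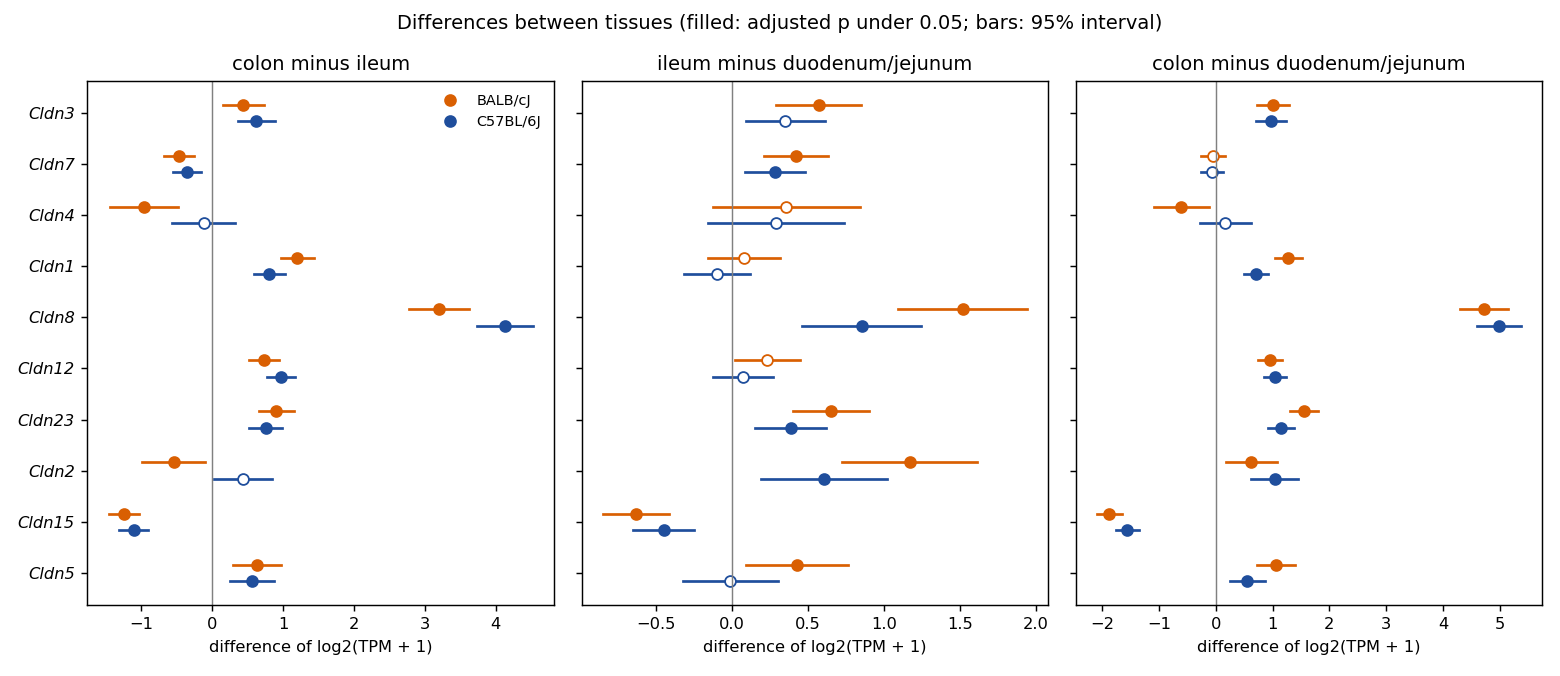
Difference in log2(TPM + 1) between segments for the 10 claudins in BALB/cJ (orange) and C57BL/6J (blue) mice, with bars for the 95% interval and filled points for an adjusted p under 0.05. Cldn8 lies farthest to the right in each panel (4.72 and 4.98 for colon minus duodenum/jejunum) and Cldn15 farthest to the left for colon minus duodenum/jejunum (-1.87 and -1.56).

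The pore formers did not move together. Cldn15 increased in the order colon, ileum, duodenum/jejunum, at 102, 115 and 121 TPM (lowest, median and highest) in the colon of BALB/cJ mice and 111, 113 and 130 TPM in C57BL/6J mice, 197, 285 and 305 TPM and 212, 252 and 378 TPM in the ileum, and 352, 422 and 457 TPM and 262, 371 and 393 TPM in the duodenum/jejunum. No colon library reached the lowest ileum library. The highest ileum value and the lowest duodenum/jejunum value of C57BL/6J mice both came from mouse 2, and without it the means were 242 ± 23.5 TPM in the ileum and 368 ± 17.1 TPM in the duodenum/jejunum (SD, n = 6). The mean in the duodenum/jejunum was 3.69-fold that in the colon in BALB/cJ mice and 2.97-fold in C57BL/6J mice, log2 differences of colon minus duodenum/jejunum of -1.87 ± 0.11 (SE, limma adjusted p = 1.32e-17) and -1.56 ± 0.10 (adjusted p = 2.91e-16).

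Cldn2 was lowest in the duodenum/jejunum, at 22.3, 33.3 and 43.7 TPM (lowest, median and highest) in BALB/cJ mice and 26.5, 32 and 56.9 TPM in C57BL/6J mice. In the ileum it stood at 62.9, 73.9 and 87.1 TPM in BALB/cJ mice and 17.5, 69.2 and 78.7 TPM in C57BL/6J mice, where both the 17.5 TPM and the 56.9 TPM belong to mouse 2. Ileum exceeded duodenum/jejunum by 1.17 ± 0.22 in BALB/cJ mice (adjusted p = 7.35e-05) and by 0.61 ± 0.20 in C57BL/6J mice (adjusted p = 0.0475, 0.0725 with the mouse as a block), or by 0.98 without mouse 2 (adjusted p = 5.41e-07). With mouse 2 kept, this C57BL/6J call was lost with RLE scaling (0.55, adjusted p = 0.0611), with a pseudocount of 0.1, with no filter and on leaving out any 1 of 11 other mice (adjusted p up to 0.238). The colon exceeded the duodenum/jejunum by 0.63 ± 0.22 in BALB/cJ mice (adjusted p = 0.0132; 0.27 and adjusted p = 0.275 with RLE scaling) and by 1.04 ± 0.20 in C57BL/6J mice (adjusted p = 3.15e-05). Colon was below ileum in BALB/cJ mice (-0.54 ± 0.22, adjusted p = 0.0414), with no overlap of libraries. The call was lost on leaving out any 1 of the 6 BALB/cJ mice or C57BL/6J mouse 5 (7 of 13 mice, adjusted p up to 0.149), with no filter, and with the epithelial (-0.29, adjusted p = 0.404) or the endothelial covariate (-0.52, adjusted p = 0.0558). It was also lost with the mouse as a block (adjusted p = 0.0606), and it stood at an adjusted p of 0.000879 with the block and without C57BL/6J mouse 2; all 6 groups share 1 estimate of the spread in this fit. In C57BL/6J mice the same difference was 0.44 ± 0.20 (adjusted p = 0.0620), or 0.18 without mouse 2 (adjusted p = 0.250).

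The balance of the pore formers therefore differed by segment. Cldn15 was 2.26 ± 0.27 times Cldn2 in the colon of BALB/cJ mice and 1.57 ± 0.15 times in C57BL/6J mice, 3.75 ± 0.92 times in the ileum of BALB/cJ mice, and 13.3 ± 3.27 and 10.1 ± 3.07 times in the duodenum/jejunum (SD of the ratio per library). In the ileum of C57BL/6J mice the median ratio was 3.45, and the library labelled ileum of mouse 2 had a ratio of 21.6, above every other ileum library and every duodenum/jejunum library.

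**Figure D4:**
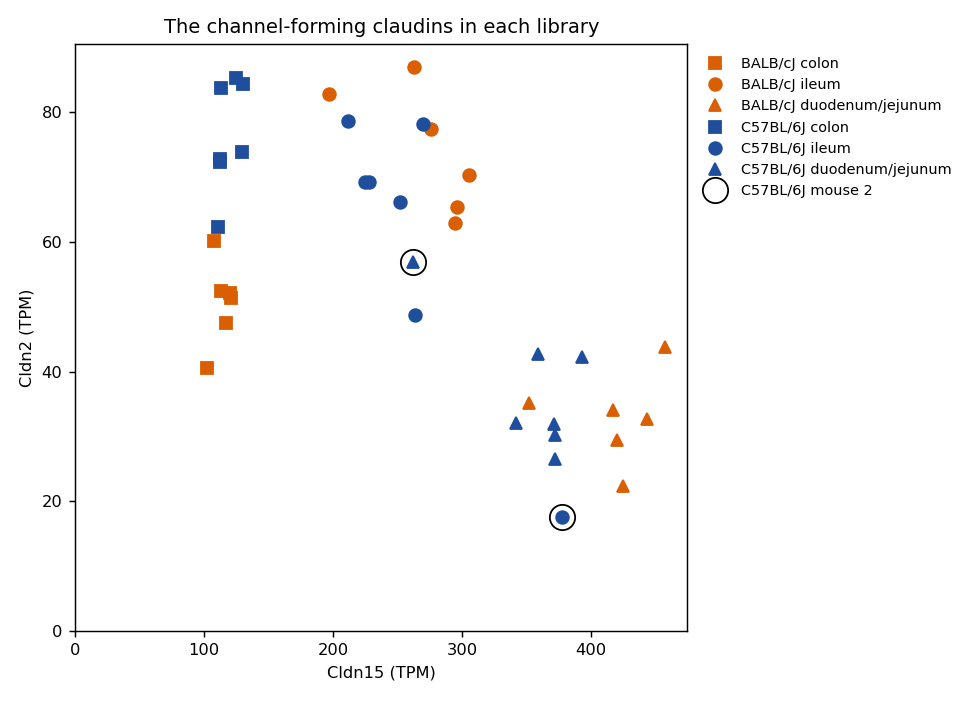
TPM of Cldn15 (x axis) and Cldn2 (y axis) in each of the 39 libraries, by strain and tissue, with the ileum and duodenum/jejunum libraries of C57BL/6J mouse 2 circled. Colon libraries lie between 102 and 130 TPM of Cldn15; the circled ileum library has 378 TPM of Cldn15 and 17.5 TPM of Cldn2, and the circled duodenum/jejunum library has 262 and 56.9 TPM.

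Cldn12, Cldn23 and Cldn5 were higher in the colon. Cldn12, which lacks the usual PDZ-binding end and has been tied to calcium passage, averaged 64.3 and 64.8 TPM in the colon of BALB/cJ and C57BL/6J mice, 38.4 and 32.9 TPM in the ileum and 33 and 31.1 TPM in the duodenum/jejunum. Colon exceeded ileum by 0.73 ± 0.11 and 0.97 ± 0.10 (adjusted p = 3.55e-07 and 7.74e-11) with no overlap, while ileum and duodenum/jejunum were not called (0.23 and 0.07).
Cldn23, known from surface cells of the colon, averaged 34.1 and 33.1 TPM in the colon, 17.9 and 19.6 TPM in the ileum and 11 and 14.4 TPM in the duodenum/jejunum. All 3 steps were called in both strains, with colon over duodenum/jejunum at 1.56 ± 0.12 (adjusted p = 1.58e-13) and 1.14 ± 0.11 (adjusted p = 5.68e-11), and in C57BL/6J mice the step between ileum and duodenum/jejunum (0.39, adjusted p = 0.0218) was lost with RLE scaling (0.34, adjusted p = 0.0643) and without C57BL/6J mouse 1, 4 or 6 (adjusted p up to 0.0928). Without mouse 2 that step was 0.42 (adjusted p = 0.0129).

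Cldn5, the main claudin of blood vessel endothelium, averaged 5.95 ± 1.17 and 4.23 ± 1.14 TPM in the colon, 3.57 ± 1.26 and 2.56 ± 0.79 TPM in the ileum and 2.33 ± 0.49 and 2.51 ± 0.46 TPM in the duodenum/jejunum (SD). Colon exceeded duodenum/jejunum by 1.06 ± 0.17 in BALB/cJ mice (adjusted p = 9.21e-07) and by 0.56 ± 0.15 in C57BL/6J mice (adjusted p = 0.00188; 0.30 and adjusted p = 0.0773 with RLE scaling). Of 13 markers of blood endothelium, 4 were higher and 0 lower in BALB/cJ colon than in BALB/cJ duodenum/jejunum, and 1 was higher and 0 lower in C57BL/6J mice, where 49.0% and 49.4% of all genes tested were higher in the colon. Their summed TPM was 203 and 166 in the colon of the 2 strains, 240 and 172 in the ileum and 178 and 177 in the duodenum/jejunum. All listed markers of lymphatic endothelium were called higher in BALB/cJ colon than in BALB/cJ duodenum/jejunum. These were Ccl21a (1.76), Pdpn (1.73), Lyve1 (1.10), Mmrn1 (0.92), Prox1 (0.59) and Flt4 (0.41). The part of lymphatic endothelium in the Cldn5 differences was not tested. Between BALB/cJ ileum and duodenum/jejunum, Cldn5 differed by 0.43 ± 0.17 (adjusted p = 0.0358), and by 0.14 (adjusted p = 0.534) with the blood endothelium markers as a covariate. That call was also lost with RLE scaling (0.25, adjusted p = 0.206), with no filter (adjusted p = 0.0589), with the epithelial covariate (adjusted p = 0.0518) and on leaving out BALB/cJ mouse 1, 2, 5 or 6 (adjusted p up to 0.120).

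Markers of epithelium, muscle and pancreas differed between the segments too. The 8 epithelial markers summed to 10290 and 10626 TPM in the colon of BALB/cJ and C57BL/6J mice, 10666 and 10289 TPM in the ileum, and 7696 and 8301 TPM in the duodenum/jejunum; none was under 1 TPM in any group. The 8 did not move together. Between BALB/cJ colon and ileum, Vil1 (-1.85), Krt20 (-1.17) and Cdh17 (-0.88) were lower in the colon. Krt18 (0.70), Cdh1 (0.50) and Lgals4 (0.23) were higher there, and Krt8 and Krt19 were not called. Of the 8, 4 (Krt8, Krt18, Krt19 and Lgals4) were higher and 0 lower in BALB/cJ ileum than in BALB/cJ duodenum/jejunum, where 35.5% of all genes were higher. With the mean of the 8 as a covariate, the Cldn7 difference between ileum and duodenum/jejunum was -0.04 in BALB/cJ mice (0.42 ± 0.10 without it). In C57BL/6J mice it was -0.02 (0.28 ± 0.10 without the covariate). The same covariate ended the BALB/cJ calls of Cldn2, Cldn4 and Cldn7 between colon and ileum, of Cldn2, Cldn3, Cldn5 and Cldn23 between ileum and duodenum/jejunum and of Cldn2 between colon and duodenum/jejunum, and the C57BL/6J calls of Cldn2 and Cldn23 between ileum and duodenum/jejunum. The 7 smooth muscle markers summed to 3921 and 4514 TPM in the colon, 1087 and 988 TPM in the ileum and 544 and 820 TPM in the duodenum/jejunum. Of the pancreas markers, Ctrb1 (-4.20 in BALB/cJ and -5.56 in C57BL/6J mice) and Pnlip (-3.59 and -5.13) were lower in ileum than in duodenum/jejunum. Cel, Cela3b, Cpa1, Prss2 and Try4 were also called lower in both strains, Cpb1 only in C57BL/6J mice and Clps in neither. Of all genes, 7.63% and 5.79% were lower in the ileum. Between BALB/cJ colon and duodenum/jejunum only Clps of the list was called (-2.03). The part of these markers in the claudin differences was not otherwise tested.

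Genes with a profile most like that of Cldn8 were sought, since it was the only 1 of the 10 whose 6 group means spanned at least 2 on the log2 scale (4.99). Among 11099 candidates, the smallest root mean square differences between centred group means belonged to Hsd11b2 (0.184), the enzyme that shields the mineralocorticoid receptor from cortisol-like steroids, Tst (0.194), a mitochondrial sulfur transferase, and Fut2 (0.230), a fucosyltransferase that makes mucosal glycans. Hsd11b2 averaged 139 and 143 TPM in the colon of BALB/cJ and C57BL/6J mice, 9.28 and 6.74 TPM in the ileum and 2.91 and 3.68 TPM in the duodenum/jejunum.

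Strains were compared within each tissue in separate limma fits. In the colon 25.3% of the 15769 genes tested were called, 14.5% higher and 10.8% lower in BALB/cJ mice, and of the 10 claudins 2 were higher (Cldn1 and Cldn5), 2 were lower (Cldn2 and Cldn4) and 6 were not called; their median difference was -0.09, against 0.02 over all genes. In the ileum 20.4% of 15537 genes were called and 0 of the 9 claudins that could be tested, though Cldn8 and Cldn12 had an unadjusted exact permutation p of 0.0350 and 0.0408; without mouse 2 the limma adjusted p of Cldn8 was 0.114 and that of Cldn12 was 0.154. In the duodenum/jejunum 9.50% of 15306 genes were called and 1 of 8 claudins, Cldn23. No test of these shares was made.

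Of the claudins, Cldn2 had the strain difference with the smallest adjusted p. In the colon it stood at 40.5, 51.7 and 60.2 TPM (lowest, median and highest) in BALB/cJ mice and at 62.4, 73.9 and 85.4 TPM in C57BL/6J mice. No library overlapped, where 11.5% of genes tested in the colon had no overlap between strains. The BALB/cJ mean was 0.663 of the C57BL/6J mean, a log2 difference of -0.59 ± 0.09 (SE, limma adjusted p = 0.00025, exact permutation p = 0.00117). The difference was -0.64 (adjusted p = 0.00515) with the epithelial markers as a covariate and -0.51 (adjusted p = 0.0221) with the endothelial ones. It was not called in the ileum, at 0.40 (95% interval -0.21 to 1.00; 0.13 without mouse 2), or in the duodenum/jejunum, at -0.17 (-0.54 to 0.21). Among markers of the crypt base and dividing cells, Ephb2 (-0.82), Top2a (-0.55), Mki67 (-0.55) and Smoc2 (-0.39) were called lower in BALB/cJ colon. Lgr5 (-0.29), Axin2 (-0.25) and Ascl2 (-0.19) were not called. Of all genes tested in the colon, 10.8% were lower. The part of these markers in the Cldn2 difference was not tested.

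Cldn4 was also lower in BALB/cJ colon, at 29.3, 33 and 37.3 TPM (lowest, median and highest) in BALB/cJ mice and 36.6, 45.5 and 63.9 TPM in C57BL/6J mice, ranges that overlapped by less than 1 TPM. The log2 difference was -0.49 ± 0.11 (adjusted p = 0.00454; exact permutation p = 0.00175), with an adjusted p of 0.0488 with the epithelial covariate and 0.112 with the endothelial one. Its neighbour Cldn3 lies 39279 bases away on chromosome 5, where Cldn4 spans chr5:134945119-134946934 on the minus strand and Cldn3 spans chr5:134986214-134987472 on the plus strand (GRCm38, GENCODE M21), each with 1 exon. Cldn3 was not called in the colon (-0.17 ± 0.08, adjusted p = 0.136).

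Cldn1 and Cldn5 were higher in BALB/cJ colon. Cldn1 stood at 1.20, 2.42 and 3.07 TPM (lowest, median and highest) in BALB/cJ mice and at 0.721, 1.09 and 1.63 TPM in C57BL/6J mice, with 1 BALB/cJ library inside the C57BL/6J range. Its mean was 2.09-fold higher in BALB/cJ mice, a log2 difference of 0.65 ± 0.15 (adjusted p = 0.00644), which was 0.40 and 0.44 with the epithelial and endothelial covariates (adjusted p = 0.239 in both). In the ileum Cldn1 was too low to be tested at 0.444 ± 0.11 TPM in BALB/cJ mice and 0.208 ± 0.06 TPM in C57BL/6J mice (SD); its exact permutation p there, unadjusted, was 0.00117.

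Cldn5 stood at 4.68, 5.89 and 7.92 TPM (lowest, median and highest) in BALB/cJ colon and at 2.76, 4.08 and 6.39 TPM in C57BL/6J colon, with overlap. The difference of 0.42 ± 0.14 had an adjusted p of 0.0455, and leaving out any 1 of 9 of the 13 mice brought it above 0.05 (up to 0.108). Of the 13 blood endothelium markers, 3 (Egfl7, Kdr and Erg) were higher and 0 lower in BALB/cJ colon. Of all genes tested there, 14.5% were higher and 10.8% lower. The 13 summed to 171 to 216 TPM in BALB/cJ mice and to 131 to 183 TPM in C57BL/6J mice. With them as a covariate the Cldn5 difference was 0.07 (limma adjusted p = 0.856). Of the lymphatic endothelium markers, Ccl21a (0.98), Pdpn (0.60) and Prox1 (0.44) were called higher in BALB/cJ colon. Lyve1 (-0.14), Mmrn1 (0.13) and Flt4 (0.13) were not called. Their part in the Cldn5 difference was not tested.

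Cldn23 was lower in the duodenum/jejunum of BALB/cJ mice, at 8.96, 10.8 and 13.3 TPM (lowest, median and highest) against 12.1, 14.7 and 16.1 TPM in C57BL/6J mice. The difference of -0.37 ± 0.11 had an adjusted p of 0.0499 (exact permutation p = 0.00583), and it was above 0.05 when any 1 of 10 of the 13 mice was left out (up to 0.124; 0.0683 without C57BL/6J mouse 2). Cldn15 there was 0.25 ± 0.10 higher in BALB/cJ mice with an adjusted p of 0.151, not called (unadjusted exact permutation p = 0.00874). Cldn7 in the colon was not called either (-0.12, limma adjusted p = 0.0714, unadjusted exact permutation p = 0.0140). Strain differences of the other members that were tested and not called lay between -0.27 (Cldn8 in the colon) and 0.66 (Cldn8 in the ileum, 0.66 ± 0.26, adjusted p = 0.0869, or 0.49 without C57BL/6J mouse 2).

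**Figure D5:**
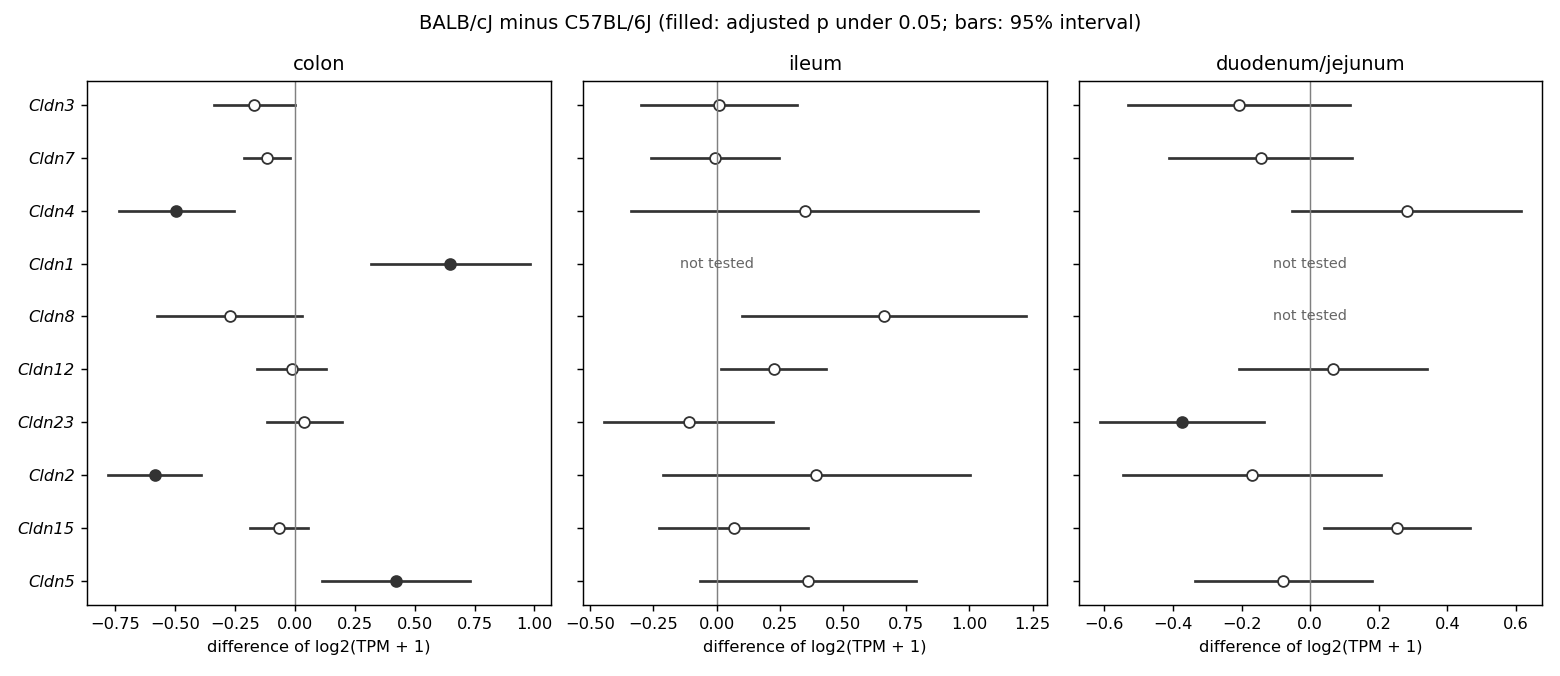
Difference in log2(TPM + 1), BALB/cJ minus C57BL/6J, for the 10 claudins in each tissue, with bars for the 95% interval and filled points for an adjusted p under 0.05. In the colon Cldn2 (-0.59) and Cldn4 (-0.49) lie left of 0 and Cldn1 (0.65) and Cldn5 (0.42) right of it; in the ileum no claudin was called.

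Whether the strain difference itself differed between segments was tested in the 39-library fit, where 4.08%, 3.92% and 5.59% (3.84% positive) of genes were called for colon against ileum, ileum against duodenum/jejunum and colon against duodenum/jejunum. The median gene shifted by -0.14, 0.16 and 0.01 in the same order. Of the 10 claudins, 0, 0 and 1 were called. The 1 was Cldn1, whose strain difference was 0.57 ± 0.16 greater in the colon than in the duodenum/jejunum (adjusted p = 0.0216), but 0.75 with an adjusted p of 0.252 when 0.1 in place of 1 was added before the log. Leaving out BALB/cJ mouse 4 or 5, or C57BL/6J mouse 4, 5 or 6, also ended that call (adjusted p up to 0.0888). Cldn1 entered this fit only through its colon libraries. For Cldn2 the strain difference in the colon minus that in the ileum was -0.98 ± 0.30 (adjusted p = 0.0555), or -0.72 without mouse 2 (adjusted p = 0.0166). For Cldn8 it was -0.93 ± 0.28 (adjusted p = 0.0540, 0.0120 without C57BL/6J mouse 3), and for Cldn4 -0.84 ± 0.32 (adjusted p = 0.148, 0.0447 with the mouse as a block).

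Other genes of the junction were read by the same fits. Of 13 other tight junction membrane proteins tested, 11 were higher and 1 lower in BALB/cJ colon than in BALB/cJ duodenum/jejunum, and 10 were higher and 2 lower in C57BL/6J mice. Of all genes tested, 49.0% were higher in the colon in BALB/cJ mice and 49.4% in C57BL/6J mice, and the counts of the lists given next stand beside those shares. Ildr1, an angulin of the corners where 3 cells meet, averaged 107 and 102 TPM in the colon of BALB/cJ and C57BL/6J mice, 5.03 and 4.99 TPM in the ileum and 1.21 and 2.33 TPM in the duodenum/jejunum, with colon over duodenum/jejunum at 5.63 ± 0.18 and 5.01 ± 0.16 (adjusted p = 1.1e-25 and 3.51e-25). Marveld2, the tricellulin of the same corners, exceeded by 0.74 and 0.49 and Cxadr by 0.83 and 0.92. Of 21 plaque proteins, which tie the strands to the cytoskeleton, 10 were higher and 2 lower in BALB/cJ mice and 13 and 2 in C57BL/6J mice, among them Cgnl1 (2.54 and 2.43) and Prkci (1.12 and 1.13). Of 5 partners and membrane proteases, 4 and 4 were higher and 0 lower, led by Prss8, the channel-activating protease prostasin (1.22 and 1.71).

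Between strains in the colon, 2 of the 13 membrane proteins were higher in BALB/cJ mice (Marveld2 at 0.25 and Esam, an endothelial adhesion molecule, at 0.40) and 0 were lower. Of the 21 plaque proteins 2 were higher and 5 lower, where 14.5% of all genes were higher and 10.8% lower; those with the smallest adjusted p were Ybx3 at -0.63, Arhgef2 at 0.35, Amot at -0.47 and Magi1 at -0.74. Of 12 epithelial transcription factors, 0 were higher and 7 lower in BALB/cJ colon, among them Cdx1 (-0.39 ± 0.06, adjusted p = 0.000234), Hnf4g (-0.39 ± 0.08, adjusted p = 0.00179), Klf4 (-0.33 ± 0.08, adjusted p = 0.00479) and Cdx2 (-0.34 ± 0.08, adjusted p = 0.00579), and their median was -0.23 against 0.02 over all genes. Along the gut, Cdx1 averaged 133 and 174 TPM in the colon, 70.0 and 76.0 TPM in the ileum and 38.2 and 50.2 TPM in the duodenum/jejunum of BALB/cJ and C57BL/6J mice.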

How the data were processed

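RNA was sequenced from 3 gut segments of 13 mice. Per the labels' protocols, PureLink RNA went into TruSeq total RNA libraries with RiboZero depletion. The submitters' processing notes name kallisto 0.44.0 and GRCm38, with the transcript annotation not given in the sources used here. Per tissue, the authors deposited 1 table, whose values read as log2(TPM + 1): turned back to TPM, the library sums run between 979558 and 996230, with 14557 to 16186 entries at 1 TPM or more. Neither the unit nor the log base is written in the tables, and TPM keeps no depth. TPM is scaled within each library, so tissues were compared across tables on that footing. Of every deposited file, 26 entries with names turned into dates were left out; 0 columns belonged to other samples and 0 pairs of libraries were identical.

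Genes at 1 TPM or more in 6 or more libraries were tested on log2(TPM + 1) with limma 3.58.1 in R 4.3.3 (trend of the variance on the mean, 2-sided, Benjamini-Hochberg over all genes tested), per tissue for strains and over 39 libraries for tissues. Exact permutation tests of strains used all 1716 splits of 13 libraries, and they also counted as an alternative at an unadjusted p under 0.05. The mouse number in the labels pairs the tissues of an animal; deviations from the group means of the same mouse correlated with a median r of 0.14 for colon and ileum, 0.24 for ileum and duodenum/jejunum and 0.10 for colon and duodenum/jejunum. Alternatives were a pseudocount of 0.1, no filter, RLE scaling, the mouse as a block, epithelial or endothelial marker means as covariates, and leaving out each mouse; the covariates in the 39-library fit, and RLE scaling together with leaving out C57BL/6J mouse 2, were added after seeing the data. Genes named are the 10 claudins, other claudins with at least 1 TPM in a group, of each other list the called members with the smallest adjusted p (4 at most), and the 3 genes most like a claudin that spans at least 2 on the log2 scale. Epithelial and crypt markers are named beyond this rule. The members, lists and rules were chosen with earlier results of these data known. The fit was tested on simulated data.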

Additional observations from a re-analysis of the deposited data

Results flagged for a closer look

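Of 60 groups of claudin values, 11 held a library far from the others by Dixon's test at 95%, which chance alone does in about 1 group in 20. Of these, 6 came from C57BL/6J mouse 2. Its library labelled ileum was lowest for Cldn2 (17.5 TPM) and Cldn5 (0.965 TPM) and highest for Cldn15 (378 TPM), and its library labelled duodenum/jejunum was highest for Cldn7 (947 TPM) and Cldn8 (1.77 TPM) and lowest for Cldn15 (262 TPM). BALB/cJ mouse 2 had the lowest Cldn7 (570 TPM) and Cldn15 (197 TPM) in the ileum and the lowest Cldn15 in the duodenum/jejunum (352 TPM); its epithelial marker sums were also the lowest of its group, at 8122 TPM in the ileum and 6909 TPM in the duodenum/jejunum. Cldn12 was highest in BALB/cJ mouse 6 in the colon (76.1 TPM) and in C57BL/6J mouse 1 in the duodenum/jejunum (40.5 TPM).

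A strain difference that itself differed between colon and duodenum/jejunum was found for Cldn1 (0.57, limma adjusted p = 0.0216, above 0.05 when any 1 of 5 of the 13 mice was left out and with a pseudocount of 0.1) and, among the other claudins, for Cldn34c1 (-0.79, limma adjusted p = 0.0131).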

How the results depend on the processing

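Of 117 claudin results in 12 comparisons, 80 kept their direction and call under every alternative run and 37 did not. The alternatives include the exact permutation test of strains, whose unadjusted p was set against the adjusted limma call. By this unlike threshold Cldn7 in the colon, Cldn8 and Cldn12 in the ileum and Cldn15 in the duodenum/jejunum count among the changed calls. Among the counts of claudins called, strain calls in the colon (4) became 2 with the epithelial covariate and 1 with the endothelial one (3 to 5 without any 1 mouse). In the ileum 0 became 1 without a filter (0 to 1), and in the duodenum/jejunum 1 became 0 without a filter, with either covariate and with RLE scaling without C57BL/6J mouse 2 (0 to 1). Between tissues, BALB/cJ ileum against duodenum/jejunum (7) became 4 with RLE scaling and 2 with the epithelial covariate (6 to 8), and C57BL/6J ileum against duodenum/jejunum (5) became 3 without a filter and 2 with RLE scaling or the epithelial covariate (2 to 6). Without any 1 mouse, BALB/cJ counts were 8 to 10 for colon against ileum and 8 to 9 for colon against duodenum/jejunum, and C57BL/6J counts 8 to 9 and 8 to 8. For strain differences between colon and ileum, 0 became 1 with RLE scaling without mouse 2 (0 to 2). Between colon and duodenum/jejunum, 1 became 0 with a pseudocount of 0.1 and 2 with RLE scaling without mouse 2 (0 to 1), and between ileum and duodenum/jejunum 0 stayed 0 (0 to 0). With the mouse as a block, the pairing of tissues moved the count of strain differences between colon and ileum to 1, or 2 without C57BL/6J mouse 2; it changed no other call than those of Cldn2, Cldn3, Cldn4 and Cldn7. With the epithelial covariate the Cldn7 difference of ileum minus duodenum/jejunum turned to -0.037 in BALB/cJ and -0.024 in C57BL/6J mice. The cause of these changes was not tested. Without C57BL/6J mouse 2, 3510 genes were called between its strain's ileum and duodenum/jejunum, against 1940 with it. Depth is unknown, so the counting error of levels under 1 TPM (Cldn1 in the small intestine and Cldn8 in the duodenum/jejunum) cannot be given.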

Other observations

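Of the other 25 claudin entries, 4 averaged at least 1 TPM in some group. Cldn14, a barrier claudin known from the inner ear and kidney, was found in the colon at 2.63 ± 0.52 TPM in BALB/cJ mice (SD, n = 6) and 2.04 ± 0.47 TPM in C57BL/6J mice (n = 7), and averaged at most 0.141 TPM in the small intestine; colon exceeded duodenum/jejunum by 1.68 ± 0.11 and 1.52 ± 0.10 on the log2 scale (SE, limma adjusted p = 2.82e-16 and 4.35e-16). Cldn34c1 ran the other way, with means of 4.44 and 5.88 TPM in the colon of BALB/cJ and C57BL/6J mice, 9.61 and 11.2 TPM in the ileum and 12.2 and 8.79 TPM in the duodenum/jejunum. It was lower in BALB/cJ colon (-0.35 ± 0.12, adjusted p = 0.0391) and not called in the duodenum/jejunum (0.44 ± 0.14, adjusted p = 0.0580). Cldn20 averaged 1.85 ± 0.42 TPM in the duodenum/jejunum of BALB/cJ mice and 0.990 ± 0.37 TPM in C57BL/6J mice (log2 difference 0.53 ± 0.14, adjusted p = 0.0288).

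Cldn18, the claudin of stomach epithelium, averaged 2.21 ± 2.42 TPM in the duodenum/jejunum of BALB/cJ mice and 1.21 ± 0.87 TPM in C57BL/6J mice, and at most 0.0236 TPM in the other groups. It was under 0.1 TPM in 4 of the 13 duodenum/jejunum libraries: BALB/cJ mice 2 (0.0151 TPM) and 5 (0.0767 TPM) and C57BL/6J mice 1 (0.0146 TPM) and 3 (0.0142 TPM). Markers of stomach and Brunner glands summed to 1349, 2.00, 235 and 10.7 TPM in those 4 libraries in the same order, and to between 1810 and 3822 TPM in the other 9. The labels do not give the position of each piece along the segment.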
